A study of Mus musculus with 6 samples.

Results

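The clustered histone genes of the mouse were followed in embryonic humerus shaft in which the transcription factor gene Stat3 had been targeted. The members were the 28 rows of the deposited RPM table, of 23930 in all, whose gene symbol begins with Hist1h, Hist2h, Hist3h or Hist4h. They comprised 6 rows for the linker histone H1, 7 for H2A, 6 for H2B, 3 for H3 and 6 for H4. The GENCODE M21 annotation (GRCm38) places 23 of them on chromosome 13, 3 on chromosome 3, 1 on chromosome 6 and 1 on chromosome 11, and lists 70 clustered histone genes in all, of which the others were not analysed here. Symbols chose the rows, but the group was picked because 1 copy, Hist1h2ab, was known to be much lower in the knockout. The values of Hist1h2ab are therefore given as a description without a test, and nothing is read from the number of members called in the comparison.

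The Stat3_KO group held 3 samples of genotype Prrx1Cre; Stat3C/C, and the Ctrl group held 3 samples of genotype Stat3C/+, called wild type in the labels although they carry a conditional allele. All 6 were humerus shaft of E16.5 mouse embryos. Prrx1Cre is a driver active in limb bud mesenchyme, which gives rise to bone, cartilage and tendon cells, and not in blood or muscle precursors. The labels do not say whether the samples were separate embryos, so the p-values describe only how far these samples scatter, and some of that scatter may be technical. Libraries came from an amplicon panel (Ion AmpliSeq) that reads 1 short target for each gene, and values are RPM, reads scaled to the total of the library. Depths recovered from the RPM steps were 9126493 to 11809106 reads in knockouts and 11640697 to 13376550 reads in controls. The Stat3 amplicon itself read 208, 201 and 170.1 RPM in knockouts, against 211, 201 and 211 RPM in controls. The sources used here do not place this amplicon inside or outside the deleted exons, and its level is no check of the labels. The osteoblast marker list had a summed level of 40946 to 45425 RPM in knockouts and 46848 to 50732 RPM in controls. Its levels were uneven. The collagen gene Col1a1 averaged 27669 RPM in knockouts and 28711 RPM in controls, and Sp7 averaged 7.66 RPM in knockouts and 13.6 RPM in controls.

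Core histones H2A, H2B, H3 and H4 form the protein spool around which DNA is wrapped, and H1 binds the linker between spools. Most clustered genes are replication dependent: they lack introns, and their transcripts rise in S phase, when newly made DNA has to be packed. Their messenger RNAs usually end in a conserved stem-loop in place of a poly(A) tail, which the stem-loop binding protein Slbp holds through processing, translation and decay. Many copies encode nearly the same protein, so the level of any copy is only a part of the supply of that histone.

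The copies are alike enough that their sequences set what the amplicons can tell apart. The first 60 coding bases of 3 H2A copies are shown, copies picked because Hist1h2ab stood apart from the other 2 in its values. This stretch was chosen because no other of 60 bases had more positions at which either copy differs from Hist1h2ab. In the Hist1h2ab line capitals mark bases at which either of the other copies differs, and in the other lines capitals mark bases that differ from Hist1h2ab.
Hist1h2ab: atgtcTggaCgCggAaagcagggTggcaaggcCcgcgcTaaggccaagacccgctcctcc
Hist1h2ac: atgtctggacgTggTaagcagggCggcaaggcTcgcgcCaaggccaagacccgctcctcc
Hist1h2ak: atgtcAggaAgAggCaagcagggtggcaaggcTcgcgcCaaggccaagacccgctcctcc

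Over the whole coding sequence of 393 bases (GENCODE M21), Hist1h2ab differed from Hist1h2ac at 10 bases (97.5% identity) and from Hist1h2ak at 14 bases (96.4%). Its closest same-length H2A copy was Hist1h2ad, with 7 differing bases, which was not analysed here. Of the 50-base windows in the Hist1h2ab coding sequence, 71.5% also occurred unchanged in the transcript of at least 1 other gene. The same share was 82.0% for Hist1h2ac, 52.3% for Hist1h2ak, 66.3% for Hist1h3a, 55.4% for Hist1h2bb, 55.7% for Hist1h2bm, 21.9% for Hist1h1c and 6.08% for Hist2h4, and it was 0 for Hist1h1a, Hist1h1b, Hist2h2be and Hist4h4. It was 81.8% for Hist1h3d, 75.3% for Hist1h4a, 72.6% for Hist1h4h, 70.3% for Hist1h4i and 68.4% for Hist1h2bh. For Hist1h1d it was 26.4%, for Hist1h1e 25.4% and for Hist2h2ab 24.1%. Reads from copies with high shares may be split between relatives, and the sources used here do not place the amplicons within their genes. Among the tested members GENCODE also places an annotated gene over Hist1h2ab, Hist1h2ak and Hist2h2ab on the opposite strand, over Hist1h1e on the same strand and over Hist1h2ac on either strand. The sources used here do not say whether counting used strand or whether any amplicon lies in an overlap. Reads of these genes may therefore include reads of their partners.

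The stem-loop was searched for in the annotated 3′ ends because it is the shared control element of this gene class. It was found in 19 of the 21 members whose transcript runs more than 16 bases past the stop codon, and 10 of the 19 carried the same 16 bases as Hist1h2ab. In the sites below capitals mark the stem-loop and the lower case letters are the 5 bases on each side.
Hist1h2ab: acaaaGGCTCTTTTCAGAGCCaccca
Hist1h3a: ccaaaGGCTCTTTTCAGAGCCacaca
Hist1h2bb: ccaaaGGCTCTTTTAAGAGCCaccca
Hist2h4: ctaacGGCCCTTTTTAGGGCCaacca

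The capital letters are the same for Hist1h2ab and Hist1h3a. Any part of the stem-loop in the differences between groups was not tested. The stem-loop of Hist1h2ab begins 46 bases after the stop codon, that of Hist1h3a 37 bases after it and that of Hist1h2bb 27 bases after it. A match describes the letters only.

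Promoters of Hist1h2ab and of its neighbour Hist1h2bb are shown from RefSeq (GRCm38.p6, plus strand, 300 bases around the annotated start). Both copies were lower in the knockout, Hist1h2ab at 9.15% and Hist1h2bb at 77.4% of the control level. Capitals mark the CCAAT box, the TATA box (TATAAA) and the octamer ATTTGCAT, each on either strand.
Hist1h2ab (chr13:23750838-23751137): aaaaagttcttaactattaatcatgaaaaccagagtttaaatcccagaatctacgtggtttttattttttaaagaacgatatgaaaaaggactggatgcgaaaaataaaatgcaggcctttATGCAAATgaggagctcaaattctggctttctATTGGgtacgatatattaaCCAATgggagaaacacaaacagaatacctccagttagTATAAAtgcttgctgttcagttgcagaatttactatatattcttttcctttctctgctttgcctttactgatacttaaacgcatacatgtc
Hist1h2bb (chr13:23746484-23746783): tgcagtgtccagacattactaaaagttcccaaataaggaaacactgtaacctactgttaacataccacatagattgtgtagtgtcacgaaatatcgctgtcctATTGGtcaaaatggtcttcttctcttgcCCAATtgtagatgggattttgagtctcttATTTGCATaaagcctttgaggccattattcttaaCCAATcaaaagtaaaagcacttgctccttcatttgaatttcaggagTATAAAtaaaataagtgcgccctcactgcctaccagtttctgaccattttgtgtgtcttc

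Of the 28 members 22 had a promoter in the RefSeq table. CCAAT, on either strand, was in 18 of the 22, against 37.4% of all 32851 promoters. TATAAA was in 16 of the 22, against 13.6%, and ATTTGCAT in 7 of the 22, against 1.74%. CCAAT and TATAAA were also both present in the promoters of Hist1h1a, Hist1h3d and Hist1h2ak, which did not pass the threshold. Any part of these motifs in the differences between groups was not tested. These motifs do not overlap each other in the promoters printed, and a match is a description of the sequence, not of a bound site.

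In the knockout 1 copy was far below the controls, and the other copies differed by much less, in both directions. Of the 28 members 20 had a mean of at least 1 RPM and were tested, with the lowest of them, Hist1h4a, at 2.07 RPM and the highest member outside the filter, Hist3h2bb-ps, at 0.898 RPM. Of the 19 other than Hist1h2ab, 2 were higher (Hist1h3a and Hist1h1c) and 4 lower (Hist1h2ac, Hist1h2bb, Hist1h2bm and Hist2h4) past the adjusted threshold of 0.05, where 16.7% of all 12846 tested amplicons were called (limma), 5.71% higher and 11.0% lower. The remaining 13 did not pass. Among the same 19, group values did not overlap for 10 members, 3 higher and 7 lower, where 33.8% of all tested amplicons were so separated, 11.9% higher and 21.9% lower. The median log2 fold change of these 19 was -0.1, against -0.06 for all amplicons tested. Hist1h2ab, whose choice fixed its direction, is included in the counts under other settings, which stand against 7 in all. With TMM or median-of-ratios scaling, or edgeR on the recovered reads, 2 members were called higher and 3 lower. DESeq2 called 4 members, limma without a filter on the mean 4, and limma without the variance trend 2, Hist1h2ab and Hist1h2bb. The 4 called without a filter included Hist1h1t, which is not among the 20. The count of 7 fell to 4 without knockout replicate 2 and to 4 without control replicate 2. In bulk samples, fewer cells of a type and less RNA per cell cannot be told apart.

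**Figure D1:**
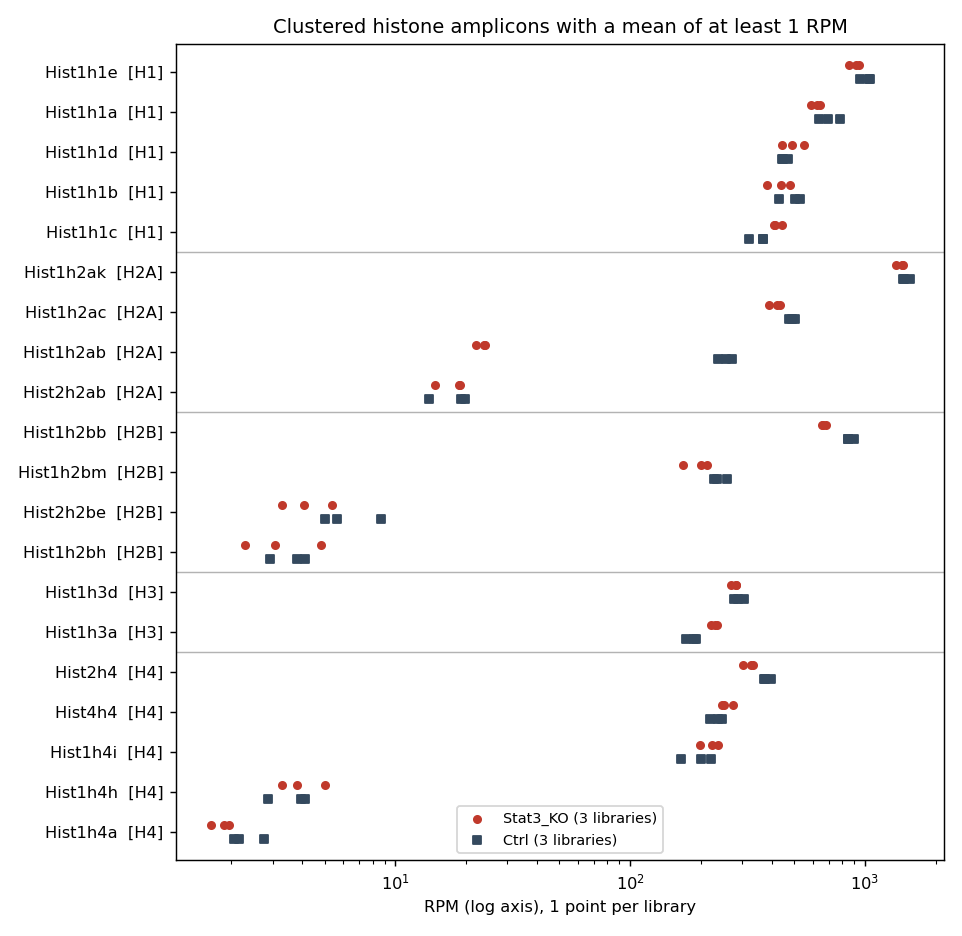
RPM of the 20 tested histone amplicons on a log axis, with 1 point per library, circles for the 3 Stat3_KO libraries and squares for the 3 Ctrl libraries, grouped by histone class. Hist1h2ab lies at 22.1 to 24.0 RPM in Stat3_KO and 237 to 271 RPM in Ctrl, while the points of most other copies lie close together.

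Among the H2A genes, Hist1h2ab (amplicon AMPLHist1h2ab_1_1.22395, gene on chromosome 13 from 23751126 to 23751598, plus strand) had 24.0, 23.9 and 22.1 RPM in knockouts, against 257, 237 and 271 RPM in controls. The groups lay far apart, and each was tight. The means were 23.3 ± 1.09 RPM in knockouts and 255 ± 17.2 RPM in controls (SD, n = 3 each), so the knockout level was 9.15% of the control level. The difference was -3.39 on the log2(RPM + 1) scale, and it was -2.99 with a pseudocount of 10 RPM. It was the third lowest of all amplicons tested, a description only, because the copy was chosen for its fall.

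The other measured H2A copies did not follow it to that depth. Hist1h2ak (chromosome 13, 21753435 to 21753827) had 1444, 1448 and 1357 RPM in knockouts, against 1466, 1453 and 1548 RPM in controls. All 3 knockout values were below all 3 control values, by a small margin, and the log2 fold change of -0.07 did not pass (limma, adjusted p = 0.504, 95% interval -0.21 to 0.07). Hist1h2ac (chromosome 13, 23681467 to 23683948) had 391.9, 423 and 433 RPM in knockouts, against 472, 488 and 502 RPM in controls. It was lower in every knockout library, with a log2 fold change of -0.23 ± 0.07 (SE, limma, adjusted p = 0.0302), but it did not pass with TMM or median-of-ratios scaling, with edgeR or DESeq2, without the filter or the trend, without knockout replicate 1 or 2, or without control replicate 2 or 3. Hist2h2ab on chromosome 3 overlapped between groups, at 14.7 to 18.8 RPM in knockouts and 13.9 to 19.8 RPM in controls (limma, adjusted p = 0.983, 95% interval of the log2 fold change -0.30 to 0.29).

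Ratios of reads within a library do not depend on how libraries are scaled, and the pairs were chosen after the values were seen. For every 100 reads of Hist1h2ak there were 1.66, 1.65 and 1.63 reads of Hist1h2ab in knockouts, against 17.5, 16.3 and 17.5 in controls. For every 100 reads of Hist1h2ac there were 6.14, 5.65 and 5.10 reads of Hist1h2ab in knockouts, against 54.4, 48.6 and 54.0 in controls. Against the adjacent H2B gene Hist1h2bb the same count was 3.52, 3.59 and 3.37 in knockouts and 28.7, 28.0 and 32.1 in controls. Of the reads of the 7 H2A rows analysed here, Hist1h2ab thus supplied 1.21% to 1.28% in knockouts and 10.8% to 11.6% in controls. Other H2A copies were not analysed, so these are not shares of all H2A transcripts.

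**Figure D2:**
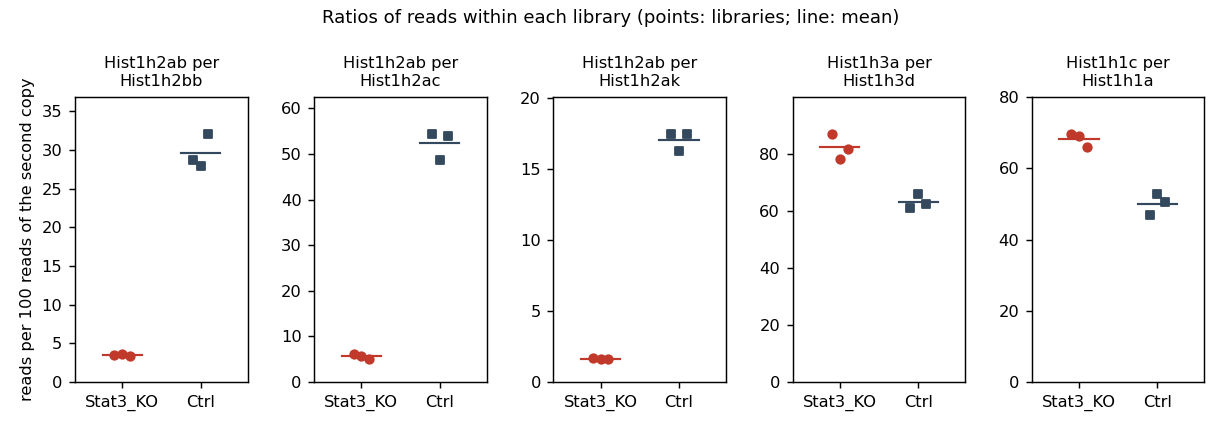
Reads of 1 histone copy per 100 reads of another within each library, with Stat3_KO on the left and Ctrl on the right of each panel, points for libraries and a line for the mean. The first 3 panels show Hist1h2ab low in all 3 Stat3_KO libraries, and the last 2 show Hist1h3a per Hist1h3d and Hist1h1c per Hist1h1a higher, at 78.0 to 86.9 in Stat3_KO against 61.0 to 65.9 in Ctrl and at 66.1 to 69.7 in Stat3_KO against 46.8 to 52.8 in Ctrl.

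The 2 best-read of the 4 tested H2B amplicons, both from chromosome 13, fell in the knockout, where 11.0% of all tested amplicons did. Hist1h2bb (chromosome 13, 23746734 to 23747241) had 683, 666 and 655 RPM in knockouts, against 894, 847 and 846 RPM in controls. The groups did not overlap, and the log2 fold change was -0.37 ± 0.07 (SE, limma, adjusted p = 8.06e-04), a call kept under every alternative listed in the closing section. Hist1h2bm (chromosome 13, 21722044 to 21722567) had 201, 213 and 167 RPM in knockouts, against 258, 235 and 228 RPM in controls. It also did not overlap, with a log2 fold change of -0.32 ± 0.09 (SE, limma, adjusted p = 0.0160). That call was lost with DESeq2 (-0.25), without the filter or the trend, without knockout replicate 3 (-0.22), without control replicate 1 (-0.27) and without control replicate 2 (-0.33). The low copies Hist2h2be, known in the mouse as an olfactory neuron variant, at 4.25 ± 1.04 RPM in knockouts and 6.45 ± 1.96 RPM in controls, and Hist1h2bh, at 3.39 ± 1.29 RPM in knockouts and 3.61 ± 0.618 RPM in controls (SD, n = 3 each), did not pass.

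In the H3 class 1 of 2 tested copies rose, where 5.71% of all tested amplicons did. Hist1h3a (chromosome 13, 23761853 to 23762386) had 235, 221 and 229 RPM in knockouts, against 187, 190.1 and 173 RPM in controls. It was higher in every knockout library, with a log2 fold change of 0.32 ± 0.08 (SE, limma, adjusted p = 0.00668), and it lost its call in limma without the variance trend. Hist1h3d (chromosome 13, 23575763 to 23577011) had 269.9, 283 and 281 RPM in knockouts, against 306, 289 and 277 RPM in controls. Those groups overlapped, and the log2 fold change of -0.06 did not pass (limma, adjusted p = 0.608, 95% interval -0.21 to 0.09). For every 100 reads of Hist1h3d there were 86.9, 78.0 and 81.6 reads of Hist1h3a in knockouts, against 61.0, 65.9 and 62.4 in controls.

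Of the 5 tested H4 genes 1 fell and 0 rose, where 11.0% of all tested amplicons fell and 5.71% rose. Hist2h4 (chromosome 3, 96261682 to 96263311) had 333, 301 and 327 RPM in knockouts, against 374, 369.8 and 399 RPM in controls. The groups did not overlap and the log2 fold change was -0.25 ± 0.07 (SE, limma, adjusted p = 0.0223), but this call was lost with TMM or median-of-ratios scaling, edgeR, DESeq2, without the filter or the trend, and without knockout replicate 2, control replicate 2 or control replicate 3. Hist4h4, a lone copy on chromosome 6 (136801553 to 136804415), had 246, 252 and 275 RPM in knockouts, against 218, 236 and 246 RPM in controls. The knockout values were all above the control values, the closest pair differing by under 1 RPM, and the log2 fold change of 0.14 did not pass (limma, adjusted p = 0.218, 95% interval -0.02 to 0.30). Hist1h4i at 219 ± 19.1 RPM in knockouts and 194.9 ± 28.5 RPM in controls, Hist1h4h at 4.04 ± 0.882 RPM in knockouts and 3.65 ± 0.679 RPM in controls, and Hist1h4a at 1.82 ± 0.162 RPM in knockouts and 2.32 ± 0.373 RPM in controls (SD, n = 3 each) did not pass either.

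Linker histone genes included 1 that rose among 5 tested, where 5.71% of all tested amplicons did. Hist1h1c (chromosome 13, 23738808 to 23740367), a somatic H1 subtype, had 410.4, 443 and 414 RPM in knockouts, against 368, 368 and 322 RPM in controls. The groups did not overlap and the log2 fold change was 0.26 ± 0.08 (SE, limma, adjusted p = 0.0199). The call was lost without the filter or the trend, without knockout replicate 2 (0.23), and without control replicate 3 (0.20). Hist1h1e had 916, 859 and 947 RPM in knockouts, against 1053, 1045 and 952 RPM in controls, and did not pass (log2 fold change -0.16, limma, adjusted p = 0.115, 95% interval -0.31 to -0.02). Hist1h1a had 589, 641 and 626 RPM in knockouts, against 785, 696 and 638 RPM in controls. It did not pass (log2 fold change -0.19, limma, adjusted p = 0.102, 95% interval -0.35 to -0.03), though it did without control replicate 3 (-0.26). Hist1h1b, at 435 ± 48.7 RPM in knockouts and 487 ± 49.7 RPM in controls, and Hist1h1d, at 493 ± 53.2 RPM in knockouts and 454 ± 15.8 RPM in controls (SD, n = 3 each), overlapped between groups and did not pass.

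**Figure D3:**
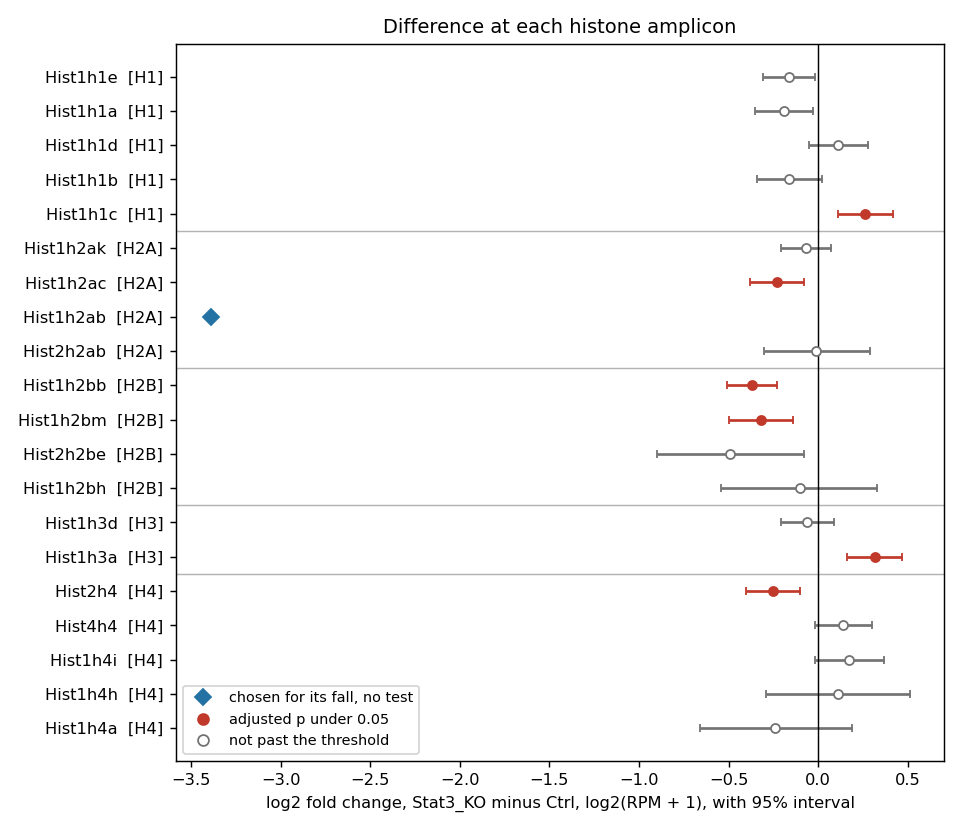
Log2 fold change (Stat3_KO minus Ctrl, on the log2(RPM + 1) scale) of the 20 tested histone amplicons with 95% intervals, filled where the adjusted p was under 0.05, with Hist1h2ab as a diamond without an interval. Hist1h2ab stands at -3.39, and the others lie between -0.49 and 0.32.

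Summed by class, the histone amplicons gave less signal in the knockout for H2A and H2B and not for H3. Single copies weighed on the H2A and H3 sums. All members together had 6799, 6959 and 7030 RPM in knockouts, against 7900, 7636 and 7478 RPM in controls, which is 90.3% of the control mean and 93.1% without Hist1h2ab. Without that copy the log2 ratio of the sum was -0.103 with the deposited scaling, -0.046 with TMM and -0.042 with median-of-ratios scaling. With quantile scaling it was -0.131. The H2B sum was 870 ± 33.4 RPM in knockouts and 1114 ± 44.1 RPM in controls. The H2A sum was 1873 ± 43.7 RPM in knockouts and 2250 ± 75.4 RPM in controls (83.3% of the control mean, or 92.7% with Hist1h2ab left out of both). Without it the H2A log2 ratio was -0.109 with the deposited scaling, -0.053 with TMM and -0.049 with median-of-ratios scaling. Quantile scaling gave -0.17 for the same ratio. Over all tested amplicons the median log2 fold change was -0.061 with the deposited scaling, -0.008 with TMM, -0.005 with median-of-ratios and -0.006 with quantile scaling. The H3 sum was 506 RPM in knockouts and 474 RPM in controls, and these groups did not overlap. It came almost wholly from Hist1h3a (log2 fold change 0.32) and Hist1h3d (-0.06), so its rise is that of Hist1h3a. The H1 sum, at 2877 ± 138 RPM in knockouts and 3018 ± 209.5 RPM in controls, and the H4 sum, at 803 ± 36.0 RPM in knockouts and 815 ± 3.68 RPM in controls (SD, n = 3 each), overlapped between groups. The log2 ratio of the H4 sum was -0.022 with the deposited scaling and 0.035 with TMM, so its sign depends on the scaling, while H2A and H2B stayed below 0 and H3 above 0 with TMM, median-of-ratios and quantile scaling. These sums are descriptions of the rows present, weighted by how well each amplicon is read.

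The neighbours of Hist1h2ab in the chromosome 13 cluster included copies called in either direction. Within 15 kb of the start of Hist1h2ab lay 6 measured members, counting itself. Of the 5 neighbours 2 were called higher, 1 lower and 2 neither, where 5.71% of all tested amplicons were higher and 11.0% lower. Nothing about position is read from so few. Hist1h2bb begins 4.4 kb before Hist1h2ab and was lower. Hist1h1c begins 12.3 kb before it and was higher, as was Hist1h3a, whose annotated start lies 10.7 kb after it. Hist1h4a and Hist1h1a, at 9.6 and 12.5 kb after it, did not pass. Hist1h2bm, the other lower H2B gene, belongs to a separate block of the cluster 2029.1 kb away.

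**Figure D4:**
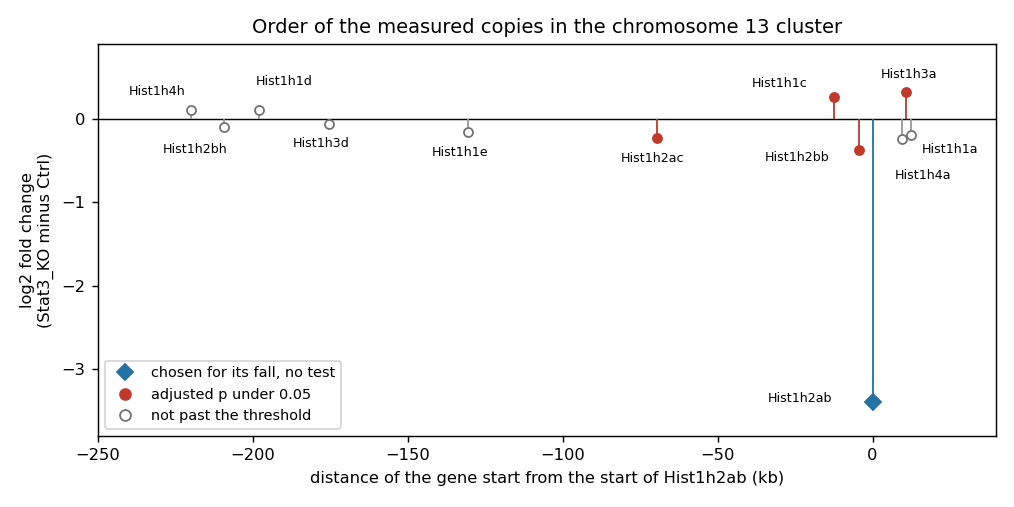
Log2 fold change (Stat3_KO minus Ctrl) of the tested copies in 1 block of the chromosome 13 cluster against the distance of each gene's start from that of Hist1h2ab in kb, filled where the adjusted p was under 0.05. Hist1h2ab, drawn as a diamond, stands at -3.39, and the 5 copies within 15 kb of it lie between -0.37 and 0.32.

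Levels were steady within groups for the better-read copies. For the 15 members with a mean over 100 RPM, the coefficient of variation was 2.15% to 12.2% in knockouts (median 4.91%) and 3.07% to 14.6% in controls (median 5.50%). The fitted SE of the log2 fold change for these was 0.07 to 0.10.

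The 8 members under the filter were barely read. Hist1h1t, the testis-specific linker histone, had 4, 2 and 3 reads in knockouts, against 9, 10 and 8 reads in controls, and these did not overlap. It passed only in the fit without a filter on the mean. Hist3h2bb-ps, a pseudogene, had 12, 8 and 7 reads in knockouts, against 7, 16 and 12 reads in controls. Hist1h2ae had 2, 4 and 3 reads in knockouts, against 3, 6 and 9 reads in controls. Hist1h4j, Hist1h3f, Hist1h2ba and Hist1h2al had at most 2 reads in any library. Hist1h2aa, a testis-specific H2A gene, had 0 reads in all 6 libraries, which allows up to 3 reads a library for counting error.

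The lists of related genes are set beside all tested amplicons, of which 5.71% were higher and 11.0% lower with a median log2 fold change of -0.06, and no list is read as standing apart. In a list of histone message processing and turnover factors, 2 of 16 tested members rose and 4 fell, with a median log2 fold change of -0.12. Npat, the coactivator that switches on histone gene transcription at the start of S phase, fell to 20.8 ± 3.14 RPM in knockouts, against 29.3 ± 2.34 RPM in controls (limma, adjusted p = 0.00953). Cpsf3, the nuclease that cuts histone pre-mRNA, fell to 54.4 ± 2.29 RPM in knockouts, against 77.9 ± 14.1 RPM in controls (limma, adjusted p = 0.00298), and Lsm11, part of the U7 particle that guides the cut, rose to 17.5 ± 2.02 RPM in knockouts, against 12.5 ± 0.433 RPM in controls (limma, adjusted p = 0.0222). Zcchc6, which adds uridines during histone message decay, rose to 88.4 ± 6.91 RPM in knockouts, against 68.2 ± 5.62 RPM in controls, and the decay helicase gene Upf1 fell to 66.8 ± 4.21 RPM in knockouts, against 83.3 ± 1.72 RPM in controls (SD, n = 3 each). Slbp itself did not pass, at 149 ± 25.5 RPM in knockouts and 136 ± 5.01 RPM in controls (limma, adjusted p = 0.426).

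Among histone chaperones 0 of 14 rose and 2 fell, where 11.0% of all tested amplicons fell, with a median of -0.02. Hjurp, which loads the centromeric H3 variant, fell to 173 ± 8.95 RPM in knockouts, against 265 ± 12.6 RPM in controls (limma, adjusted p = 9.95e-06). Ubn1, a subunit of the complex that deposits H3 outside S phase, fell to 38.5 ± 2.05 RPM in knockouts, against 53.2 ± 1.07 RPM in controls. Among histone genes outside the clusters 0 of 7 rose and 1 fell, with a median of -0.20. That gene, H2afx, which encodes the H2A variant marked at DNA breaks, was at 148 ± 9.66 RPM in knockouts and 182 ± 18.3 RPM in controls (limma, adjusted p = 0.0236).

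In the DNA replication list 4 of 37 tested members were higher and 6 lower, where 5.71% of all tested amplicons were higher and 11.0% lower, with a median of -0.09. The helicase-activating factor gene Mcm10 (log2 fold change -0.55), the helicase subunit gene Mcm3 (-0.47), the origin factor gene Cdc6 (-0.44) and the polymerase gene Pole (-0.38) fell, and Rfc5 (0.40), a subunit of the clamp loader, rose (limma, adjusted p at most 0.0243). In the mitosis list 0 of 13 rose and 3 fell, with a median of -0.17, among them the spindle motor gene Kif11 (-0.69) and the kinase genes Plk1 (-0.37) and Cdk1 (-0.24). Summed levels of the replication list were 2729 to 2833 RPM in knockouts and 2807 to 2809 RPM in controls, and those of the mitosis list 1682 to 1709.6 RPM in knockouts and 1759.6 to 1779.6 RPM in controls.

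Transcripts of replication-dependent histone genes come mainly from dividing cells, which can be of any type. Markers of several cell types differed between the groups. Calls over all tested amplicons were 5.71% higher and 11.0% lower. In the neutrophil list 6 of 6 tested members were lower, with a summed level of 39.2 to 43.4 RPM in knockouts and 92.9 to 95.3 RPM in controls. In the macrophage list 4 of 7 were higher and 1 lower, at 483 to 522 RPM in knockouts and 384 to 407 RPM in controls. Osteoblast markers were lower in 7 of 9, cartilage markers in 5 of 8 (366 to 401 RPM in knockouts, 468 to 488 RPM in controls) and skeletal muscle markers in 4 of 8 (12224 to 13194 RPM in knockouts, 13757 to 13945 RPM in controls), with none higher. Erythroid markers had 1 of 3 higher and 0 lower (78.9 to 88.3 RPM in knockouts, 67.7 to 79.8 RPM in controls), and endothelial markers 0 of 5 higher and 2 lower (610 to 648 RPM in knockouts, 609 to 656 RPM in controls). No marker measured in these 7 lists was at 0 in all libraries. The part of these cell types in the histone values was not tested.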

How the data were processed

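RNA from the humerus shaft of 3 Stat3_KO and 3 Ctrl samples was extracted with Trizol, copied with a SuperScript VILO kit and read with the Ion AmpliSeq mouse transcriptome panel, per the labels' protocols. Priming, aligner, counter, versions and genome build: not given in the sources used here. For each of 23930 amplicons the authors deposited an RPM value. Dividing by the smallest step of a library gave whole reads for 100% of values (within 0.1 read), with a read worth 0.0748 to 0.110 RPM; edgeR on these reads called 1974 amplicons. No molecular identifiers are stated, so limits from reads cover counting error only. Libraries of a group differed beyond counting noise (chi-square per degree of freedom 4.54 to 7.80) and were kept as separate replicates.

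After removal of amplicons averaging under 1 RPM, 12846 were compared as log2(RPM + 1) with limma 3.58.1 (R 4.3.3, empirical Bayes with trend, two-sided, Benjamini-Hochberg over all tested, threshold 0.05). For low genes this scale shrinks the fold change. Named were Hist1h2ab, every member past the threshold and the 2 members of each class with the highest mean; others are given by values. From the other lists at most 5 changed members were named, those with the largest change first, and Slbp was added for its role after its value was seen. Members and lists were chosen with earlier results of these data known. Alternatives were pseudocounts of 0.1 and 10 RPM, a mean of at least 5 RPM, no filter, TMM, median-of-ratios and quantile scaling, no trend, a replicate block, each library left out, and edgeR 4.0.16 and DESeq2 1.42.0 on recovered reads. The fit was tested on simulated data. Gene positions and transcripts are GENCODE M21 (GRCm38), matched by symbol for all 28 members. Promoters are RefSeq (GRCm38.p6), matched by current or older symbol. Figures used matplotlib 3.10.9.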

Additional observations from a re-analysis of the deposited data

How the results depend on the processing

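Of the 20 histone amplicons tested 7 passed the threshold, counting Hist1h2ab, which was chosen for its fall. Of all 12846 amplicons tested 2142 passed, which is 16.7%. The histone count was 7 with either other pseudocount, a mean of at least 5 RPM or quantile scaling, and 5 with TMM, median-of-ratios or edgeR. It was 4 without a filter on the mean, 2 in limma without the trend and 4 with DESeq2, and it lay between 4 and 6 when each library was left out. Without a filter 27 members were tested, and the 4 called included Hist1h1t, which is not among the 20. For all amplicons the count was 1392 without a filter and 995 without the trend, and 1173 to 2019 with each library left out. Among all calls the higher share was 34.2% with the deposited scaling and 52.9% with TMM. The median log2 fold change of all tested amplicons was -0.061 with the deposited scaling and -0.008 with TMM. Across the 17 alternatives none of the 12 histone amplicons named with every library's value changed sign; Hist1h2ab lay between -3.45 and -2.99, Hist1h2bb between -0.38 and -0.31, and Hist1h3a between 0.28 and 0.38. The causes of lost calls were not tested. Same-numbered libraries did not deviate together (correlations 0.013, -0.019 and 0.107), and with the replicate block 7 histone amplicons and 2462 of all amplicons were called. Depth limits the 8 members under the filter, read at most 16 times in a library.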
